A study of Mus musculus with 2 samples.

Results

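Cluster 3 was 1 of the 11 cell clusters that the authors drew from single cells of mouse gastric adenocarcinomas, and it carried genes of gastric epithelium. Its members were chosen by the authors' own numbering, as every gene in the column for cluster 3 of their table of cluster comparisons. This gave 5474 genes of the 18319 named anywhere in that table. The tumors grew from injected mouse dysplastic stem cells, which the labels call DP-DSC. A tubular adenocarcinoma was taken 13 weeks and a cystic adenocarcinoma 10 weeks after injection, with 1 inDrop library each, from female mice labelled with the NuJ strain. NuJ is a nude strain without a thymus, so that mature T cells are scarce while B, NK and myeloid cells remain. The table holds no values per library, so the tumor types could not be compared for cluster 3, and no value has an error across animals. The depth behind each fold is unknown, because the sources used here state neither how many cells each cluster held nor how many transcripts a cell gave. The table's title mentions an equal number of cells, without saying per cluster or per library.

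The glandular stomach is lined by a single layer of cells with keratins of simple epithelium, sealed by tight junctions. Surface mucous cells secrete gastrokines, trefoil peptides and mucins, and deeper gland cells carry channels for chloride, bicarbonate and water. In dysplasia and intestinal-type change such cells can also take up genes of the intestine, such as those of the brush border of microvilli.

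Listed genes of a cluster are those named in its column with a linear fold, always above 1.5. A listed gene is called raised when its fold is at least 2 and the authors' p is at most 0.05. Which cells each fold was set against is not stated there. The unit over which the authors' p was computed is not stated, and cells, if used, are not replicates. The clusters were drawn from the same cells, so p served only to filter genes and no difference was tested. A gene that is not listed may still be expressed. The comparisons for clusters 3, 6 and 9, each resembling epithelium, may share the cells they were set against, and their values are therefore set side by side without counting overlaps.

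In cluster 3, 29.9% of the named genes were listed, 22.0% reached a fold of 2 at any p, and 4.0% were raised. The shares listed and raised were 36.4% and 20.3% in cluster 6, and 38.9% and 26.6% in cluster 9. These shares stand beside every count of members below. Since the cells were clustered on the same genes, nothing is read from a count that lies above or below them. Of the 5474 members, 733 were raised, 3292 had a fold of at least 2 with a larger p, 142 had a smaller fold with a p inside the limit, and 1307 met neither limit. The median fold of all members was 2.73, with quartiles of 1.97 and 4.43, against medians of 2.57 in cluster 6 and 2.46 in cluster 9. Over the raised genes alone the median was 6.03 in cluster 3, against 3.34 in cluster 6 and 3.10 in cluster 9. The limit on p kept 733 of the 4025 genes at a fold of at least 2 in cluster 3. It kept 3713 of 4750 in cluster 6 and 4871 of 4966 in cluster 9. The medians of raised genes thus rest on unlike selections, and no stronger difference in cluster 3 is read from them. Without a limit on p the number at a fold of at least 2 was 4025, while limits of 0.01 and 0.001 left 362 and 144 raised genes. Raised genes were more numerous in clusters 6 and 9, so each list was also counted over the first 733 genes by p of every cluster, whatever their fold. For some of the lists, counts at these settings are given with the list.

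The 5 marker genes given for the cluster were all listed and raised in it, which describes the choice of the markers, made with these results known. At a p of at most 0.01, 4 were still raised in cluster 3, without Vil1, and at 0.001 there were 3, without Krt20 as well. Clusters 6 and 9 had 4 and 5 at both limits. With the same number of first genes by p in every cluster, the counts were 5, 4 and 3 in clusters 3, 6 and 9. Clusterin (Clu), a secreted chaperone, had the smallest p of cluster 3 and a fold of 2.40, against 2.25 in cluster 6, 2.35 in cluster 9 and 2.38 in cluster 7 of the authors' deposited table. Cathepsin E (Ctse), an aspartic protease of gastric surface cells, was at 3.20 in cluster 3, against 3.60, 3.48 and 1.77 in clusters 6, 9 and 5 in the authors' deposited table. Both genes thus had folds in cluster 3 that lay close to those of clusters 6 and 9.

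Villin (Vil1), which bundles actin in microvilli, had a fold of 8.40 in cluster 3, against 1.54 in cluster 6 and 5.97 in cluster 9 of the authors' deposited table. The cAMP-gated chloride and bicarbonate channel Cftr was at 7.54 in cluster 3, against 2.93 in cluster 6 and 5.90 in cluster 9 of the authors' deposited table. Keratin 20 (Krt20), a keratin of differentiated gastrointestinal epithelium, had the opposite order, with 3.28 in cluster 3, against 4.50, 3.83 and 1.75 in clusters 6, 9 and 5 in the authors' deposited table. Vil1 was not raised in cluster 6. The other 4 markers were raised in clusters 6 and 9 as well, and so was Vil1 in cluster 9. The remaining 6 clusters, 1, 2, 4, 8, 10 and 11, listed 0 of the 5 markers.

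On GRCm38 in GENCODE M21, Clu lies on chromosome 14 from 65968483 to 65981547 and Ctse on chromosome 1 from 131638306 to 131675505, both on the plus strand. Vil1 lies on chromosome 1 from 74409376 to 74435559 and Cftr on chromosome 6 from 18170687 to 18322768, also on the plus strand. Krt20 lies on the minus strand of chromosome 11 from 99428403 to 99438150. All 5 are protein-coding genes.

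**Figure D1:**
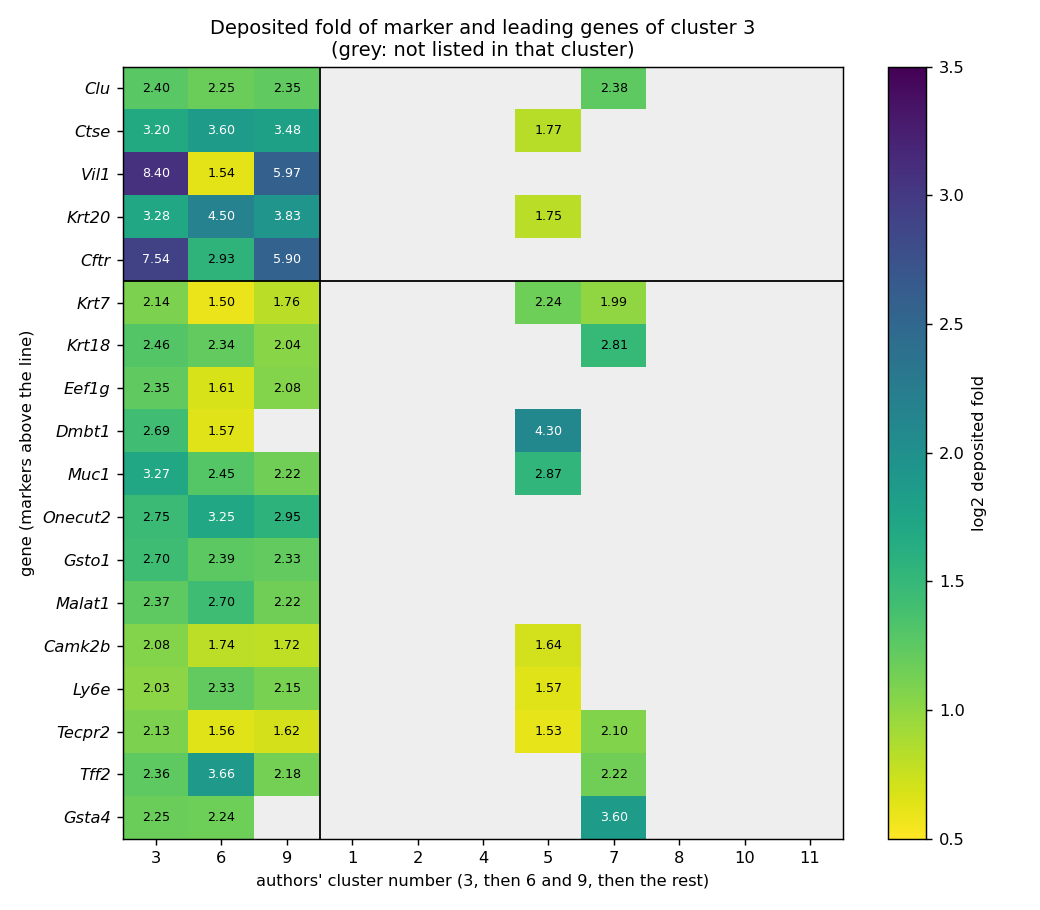
Deposited fold (number in each cell, colour on a log2 scale) of the 5 markers, above the line, and of the other genes among the first 15 raised genes by p in cluster 3, below it, in all 11 clusters. Grey cells are not listed. Filled cells lie in clusters 3, 6 and 9 and, for some genes, in 5 and 7, and the 2 darkest in the column of cluster 3 are Vil1 at 8.40 and Cftr at 7.54.

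The promoters of the raised markers Vil1, Krt20 and Cftr and of the mucin gene Muc1 are shown because endodermal transcription factors, which bind such promoters, had raised members in cluster 3. Each is the stretch of 250 bases before the start site in RefSeq on GRCm38.p6, written 5′ to 3′ on the strand of the gene. The table of promoters used here held 3 of the 5 markers, and Clu and Ctse are named only. The lines hold Vil1 at chr1:74409134-74409383 on the plus strand, Krt20 at chr11:99438154-99438403 on the minus strand, Cftr at chr6:18170437-18170686 on the plus strand and Muc1 at chr3:89228806-89229055 on the plus strand. Capitals mark a match to a motif on either strand.
Vil1: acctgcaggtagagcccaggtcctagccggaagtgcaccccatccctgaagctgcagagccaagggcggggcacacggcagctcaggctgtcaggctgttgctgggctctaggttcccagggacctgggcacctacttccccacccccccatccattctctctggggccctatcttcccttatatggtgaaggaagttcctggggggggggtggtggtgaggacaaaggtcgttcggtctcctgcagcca
Krt20: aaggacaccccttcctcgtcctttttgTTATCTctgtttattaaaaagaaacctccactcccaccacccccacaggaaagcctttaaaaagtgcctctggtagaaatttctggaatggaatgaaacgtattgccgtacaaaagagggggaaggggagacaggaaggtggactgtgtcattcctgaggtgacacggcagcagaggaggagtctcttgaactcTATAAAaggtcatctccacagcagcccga
Cftr: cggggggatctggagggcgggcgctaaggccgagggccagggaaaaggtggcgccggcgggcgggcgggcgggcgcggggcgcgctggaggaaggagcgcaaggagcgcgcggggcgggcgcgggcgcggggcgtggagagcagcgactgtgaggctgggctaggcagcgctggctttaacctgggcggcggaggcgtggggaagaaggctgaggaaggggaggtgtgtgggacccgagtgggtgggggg
Muc1: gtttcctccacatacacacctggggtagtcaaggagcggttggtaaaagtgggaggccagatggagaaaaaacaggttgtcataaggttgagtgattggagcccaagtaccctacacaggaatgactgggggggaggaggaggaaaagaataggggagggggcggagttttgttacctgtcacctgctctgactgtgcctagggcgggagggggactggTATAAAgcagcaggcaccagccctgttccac

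Each motif was searched on both strands. TATAAA stood for the box bound by the general transcription machinery. AGATAA stood for factors of the Gata4 family. TGTTTAC stood for factors of the Foxa2 family. The letters CAAAGTCC stood for Hnf4a. Krt20 held a TATAAA at position -29 from the start site and an AGATAA on the other strand at position -223. Muc1 held a TATAAA at position -31. The windows of Vil1 and Cftr held none of these letters, and no matches overlapped. Their content of G and C was 62.8% and 76.4%, against 48.0% for Krt20 and 54.8% for Muc1. The table held promoters for 439 of the 733 genes raised in cluster 3. Of these 439, 10.5% held TATAAA, 4.78% AGATAA, 1.82% TGTTTAC and 1.14% CAAAGTCC. Over all 27025 promoters the shares were 13.0%, 10.3%, 3.09% and 1.22% in the same order. For genes raised in cluster 6 they were 6.61%, 6.14%, 2.34% and 1.27%, and for cluster 9 they were 6.82%, 6.02%, 2.29% and 1.32%. The median content of G and C was 58.4% for genes raised in cluster 3, 59.6% for clusters 6 and 9, and 52.0% over all promoters. A match describes the letters alone.

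The genes with the smallest p in cluster 3 had modest folds. The first 15 raised genes by p, without ribosomal, mitochondrial and unnamed predicted genes, had folds from 2.03 to 3.27. After Clu came the keratins of simple epithelium Krt7 and Krt18, at 2.14 and 2.46 in cluster 3, 1.5 and 2.34 in cluster 6, and 1.76 and 2.04 in cluster 9 of the authors' deposited table. A few places after Ctse stood the secreted scavenger receptor glycoprotein Dmbt1, which was at 2.69 in cluster 3, 1.57 in cluster 6 and 4.30 in cluster 5, and was not listed in cluster 9 of the authors' deposited table.

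The transmembrane mucin Muc1 had a fold of 3.27 in cluster 3, against 2.45 in cluster 6, 2.22 in cluster 9 and 2.87 in cluster 5 of the authors' deposited table. The homeodomain factor Onecut2 was at 2.75 in cluster 3, 3.25 in cluster 6 and 2.95 in cluster 9, and the trefoil peptide Tff2 at 2.36, 3.66 and 2.18 in the same clusters, in the authors' deposited table. For Muc1 the fold was highest in cluster 3, while for Onecut2 and Tff2 it was highest in cluster 6.

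The glutathione transferases Gsto1 and Gsta4 had folds of 2.7 and 2.25 in cluster 3 and 2.39 and 2.24 in cluster 6, while in cluster 9 Gsto1 was at 2.33 and Gsta4 was not listed in the authors' deposited table. The nuclear long non-coding RNA Malat1 was at 2.37 in cluster 3, 2.7 in cluster 6 and 2.22 in cluster 9 of the authors' deposited table. The other genes of the first 15 were the elongation factor subunit Eef1g, the kinase subunit Camk2b, the surface protein Ly6e and Tecpr2, a gene of autophagy, at 2.35, 2.08, 2.03 and 2.13 in cluster 3 of the authors' deposited table. Cluster 6 listed all 15 and cluster 9 listed 13.

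The largest folds in cluster 3 stood later in the order of p. The 15 largest among raised named genes came between places 122 and 843. The cell type lists held 0 of these 15 and 5 of the first 15 by p, but they cover only 131 of the 18319 genes, or 0.715%, so little can be read from either count. The largest was that of Jakmip1, which encodes a microtubule-binding protein, at 226.02 in the authors' deposited table. The zinc finger genes Zfp58, Zfp28, Mzf1 and Zbtb26 had folds of 157.1, 58.7, 41.7 and 40.2 there, by the authors' deposited table. The flagellar gene Spef2 was at 105.5 and Psors1c2 at 58.1 in the authors' deposited table.

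Among the others were the metalloprotease Adam33 at 48.2, the lysyl oxidase Loxl4 at 41.1, the gluconeogenic enzyme Fbp1 at 39.8 and the collagen chain Col9a3 at 38.5 in the authors' deposited table. The hormone receptors Gnrhr and Glp1r were at 39.7 and 37.4, the olfactory receptor Olfr330 at 43.0 and the complement protease Masp2 at 36.6 in the authors' deposited table. Of the 15 genes, 14 were listed in no other cluster, and Adam33 was also listed in cluster 11 at 1.81 in the authors' deposited table. The number of cells in which each was detected is not in the table.

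The first genes by p that cluster 3 alone listed included several of these, namely Zfp58, Mzf1, Loxl4 and Glp1r. The others were Arpin, an inhibitor of actin branching, at 25.2, the adhesion protein Cntn1 at 28.8, the histone H2bc9 at 10.2, Rasl11b at 35.9, the calcium pump Atp2a1 at 10.5 and the ephrin receptor Ephb1 at 8.60 in the authors' deposited table. A group of 72 genes of cluster 3 had the same p, to within 1e-09 on the log10 scale. In clusters 6 and 9 the largest such groups held 117 and 221 genes. All 72 were raised, with folds from 6.21 to 99.1 and a median of 15.8, and all 72 were listed in no other cluster. They took places 295 to 366 in the order of p. Zfp28, Gnrhr and Col9a3 were in this group, as were Cdhr2, Chat and Slurp1, described below.

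**Figure D2:**
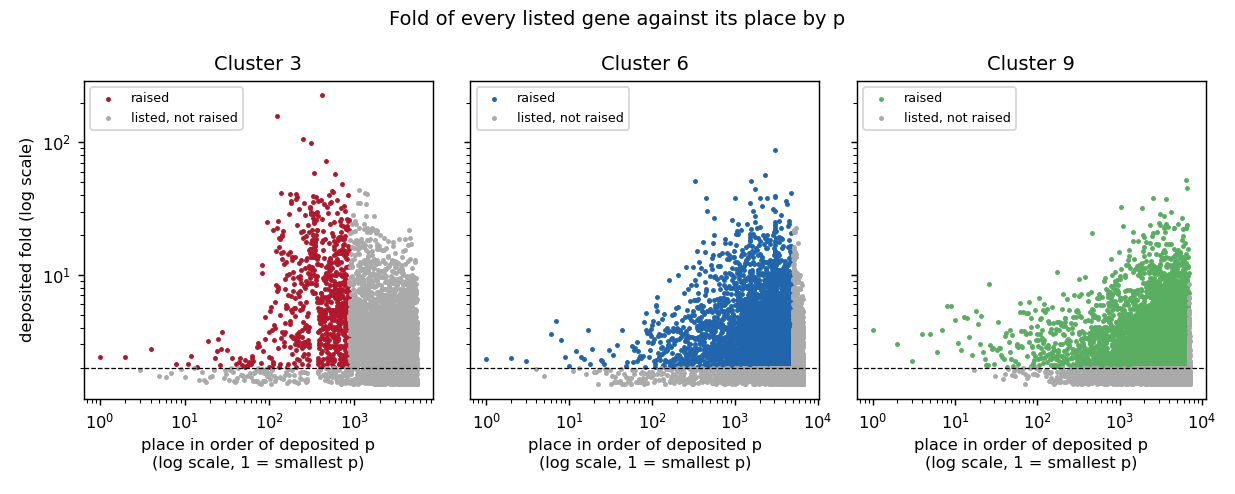
Deposited fold of every listed gene (both axes logarithmic) against its place in the order of p, with 1 the smallest p, in clusters 3, 6 and 9. Coloured points are raised genes, grey points are listed genes that are not raised, and the dashed line is a fold of 2. In cluster 3 the raised genes end within the first 1000 places, with Jakmip1 at 226.02 the highest point, whereas in cluster 9 nearly all genes above the line are raised.

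Fold and p were related differently across the members. The first 100 genes of cluster 3 by p had a median fold of 1.95, and 56 of them were under 2. The median was 4.69 over places 101 to 250 and 6.69 over places 251 to 500, where 93 genes had a fold of at least 10. It was 2.40 over the places from 2501 on. In cluster 9 the medians over the same first 3 ranges were 2.82, 2.41 and 2.11, with 1 gene at 10 or more in places 251 to 500, and in cluster 6 they were 1.96, 2.30 and 2.64, with 12 such genes. At the threshold itself stood Ide, Eml3 and Arf4 just inside a fold of 2, of which Ide was raised, and Gm37376, Epop and Smap1 just outside it.

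Structural genes of simple epithelium were carried by cluster 3 with gaps. Of 9 general epithelial genes 7 were listed and 4 raised in cluster 3, against 8 listed and 5 raised in cluster 6 and the same counts in cluster 9. Their listed members had a median fold of 4.07 in cluster 3, against 2.29 and 2.03 in clusters 6 and 9. These medians cover different genes, since Epcam and Cdh1 count in clusters 6 and 9 and not in cluster 3. The median in cluster 3 was the fold of Elf3, which was not raised there. The claudins Cldn3 and Cldn7 of the tight junction led the raised members, at 4.80 and 4.37 in cluster 3 and 2.92 and 3.41 in cluster 6, while in cluster 9 Cldn7 was at 4.06 and Cldn3 was not listed in the authors' deposited table. Krt19 was at 2.83 in cluster 3, 2.94 in cluster 6 and 2.53 in cluster 9 of the authors' deposited table. The adhesion genes Epcam and Cdh1 were not listed in cluster 3, against 2.25 and 1.79 in cluster 6 and 1.73 and 1.79 in cluster 9 of the authors' deposited table. Of 6 keratins of simple epithelium, 5 were listed and 4 raised in cluster 3, and Krt8 had a fold of 1.70, against 1.96 in cluster 6 and 2.01 in cluster 9 of the authors' deposited table.

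Tight junction genes had 12 of 17 named members listed in cluster 3, of which 11 had a fold of at least 2 and 6 were raised. Cluster 6 had 10 listed and 8 raised, and cluster 9 had 13 listed and raised. Tricellulin (Marveld2), which seals the corners where cells meet, was at 10.1 in cluster 3 and 2.80 in cluster 9 and was not listed in cluster 6 of the authors' deposited table. The stomach claudin Cldn18 was at 2.91 in cluster 3, 2.38 in cluster 6 and 2.83 in cluster 9 of the authors' deposited table. Cldn4 was listed at 16.3 and the polarity gene Pard6b at 3.36 in cluster 3 of the authors' deposited table, and neither was raised there. Cldn10, outside the list, was raised in cluster 3 at 28.5 and listed nowhere else in the authors' deposited table.

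For adherens junctions and desmosomes, 9 of 14 genes were listed in cluster 3 and 1 was raised, against 10 listed and 7 raised in cluster 6, and 11 listed and 8 raised in cluster 9. The raised member was the desmosomal cadherin Dsg2, at 2.98 in cluster 3 and 8.31 in cluster 7 of the authors' deposited table. Desmoplakin (Dsp) and periplakin (Ppl) were listed at 6.42 and 6.17 in cluster 3 without being raised, against 4.23 and 3.56 in cluster 6, with 3.68 and 3.47 in cluster 9 of the authors' deposited table.

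Genes of the microvillus brush border had 5 of 11 named members listed in cluster 3, all at a fold of at least 2, and 3 raised. Cluster 6 had 3 listed and 1 raised, and cluster 9 had 7 listed and raised. The protocadherin Cdhr2, which links the tips of microvilli, was at 15.5 in cluster 3 and listed in no other cluster, and the actin bundler Espn was at 5.60 in cluster 3 and 2.37 in cluster 9 of the authors' deposited table. The second tip-link protein Cdhr5 and the fimbrin Pls1 were listed at 4.22 and 3.32 in cluster 3, not raised, against 5.03 and 2.03 in cluster 9 of the authors' deposited table. At a p of at most 0.01, 1 brush border gene was raised in cluster 3, namely Cdhr2, and at 0.001 there were 0. Clusters 6 and 9 stayed at 1 and 7. With the same number of first genes by p in every cluster, the counts were 2, 1 and 2 in clusters 3, 6 and 9. Of the 14 genes of the enterocyte list, 7 were named in any cluster. Of these 7, 3 were listed in cluster 3 and 2 raised, namely Vil1 and the lectin Lgals4. Lgals4 was at 2.68 in clusters 3 and 6 and 2.05 in cluster 9 of the authors' deposited table.

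Ion and water transport genes had 13 of 19 named members listed and 6 raised in cluster 3, against 15 listed and 12 raised in cluster 6, and 13 listed and 10 raised in cluster 9. The chloride transporter Slc26a9, known from gastric surface cells, was at 8.66 in cluster 3, 1.58 in cluster 9 and 3.21 in cluster 5, and was not listed in cluster 6 of the authors' deposited table. The sodium pump subunit Atp1b1 was at 5.77 in cluster 3, 3.08 in cluster 6 and 2.43 in cluster 9 of the authors' deposited table. The water channel Aqp5 had folds of 3.69, 1.96 and 2.34 in clusters 3, 6 and 9 in the authors' deposited table. Slc26a9 was no longer raised in cluster 3 when p had to be at most 0.01. With Cftr, these 4 genes had higher folds in cluster 3 than in clusters 6 and 9.

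Other transport genes did not follow that order. The potassium channel Kcnq1 was at 2.95 in cluster 3, 2.45 in cluster 6 and 3.04 in cluster 9 by the authors' deposited table. Carbonic anhydrase Car2 was at 2.20, 2.49, 2.03 and 7.19 in clusters 3, 6, 9 and 5, in the authors' deposited table. The channel subunit Kcne3 was listed at 4.40 in cluster 3 without being raised, against 6.57 in cluster 6 and 2.54 in cluster 9 of the authors' deposited table.

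Endodermal and gastric transcription factors had 11 of 18 named members listed and 4 raised in cluster 3, against 11 listed and 6 raised in cluster 6, and 12 listed and 8 raised in cluster 9. The zinc finger factor Gata4, which patterns the glandular stomach, was at 7.41 in cluster 3, 3.02 in cluster 6 and 3.08 in cluster 9 of the authors' deposited table. The forkhead factor Foxa2 was at 2.33 in cluster 3 and 13.3 in cluster 5 and was listed in neither cluster 6 nor cluster 9 of the authors' deposited table. Elf3 and Foxa3 were listed but not raised in cluster 3, with folds of 4.07 and 2.42 by the authors' deposited table. Gata4 stood at place 871 of the 875 genes of cluster 3 whose p was at most 0.05. At a p of at most 0.01, Onecut2 was the 1 factor still raised in cluster 3, against 6 in cluster 6 and 8 in cluster 9. With the same number of first genes by p in every cluster, the counts were 3, 2 and 4 in clusters 3, 6 and 9. Hnf4a was not listed in cluster 3, against 2.0 in cluster 6 and 1.52 in cluster 9 of the authors' deposited table.

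**Figure D3:**
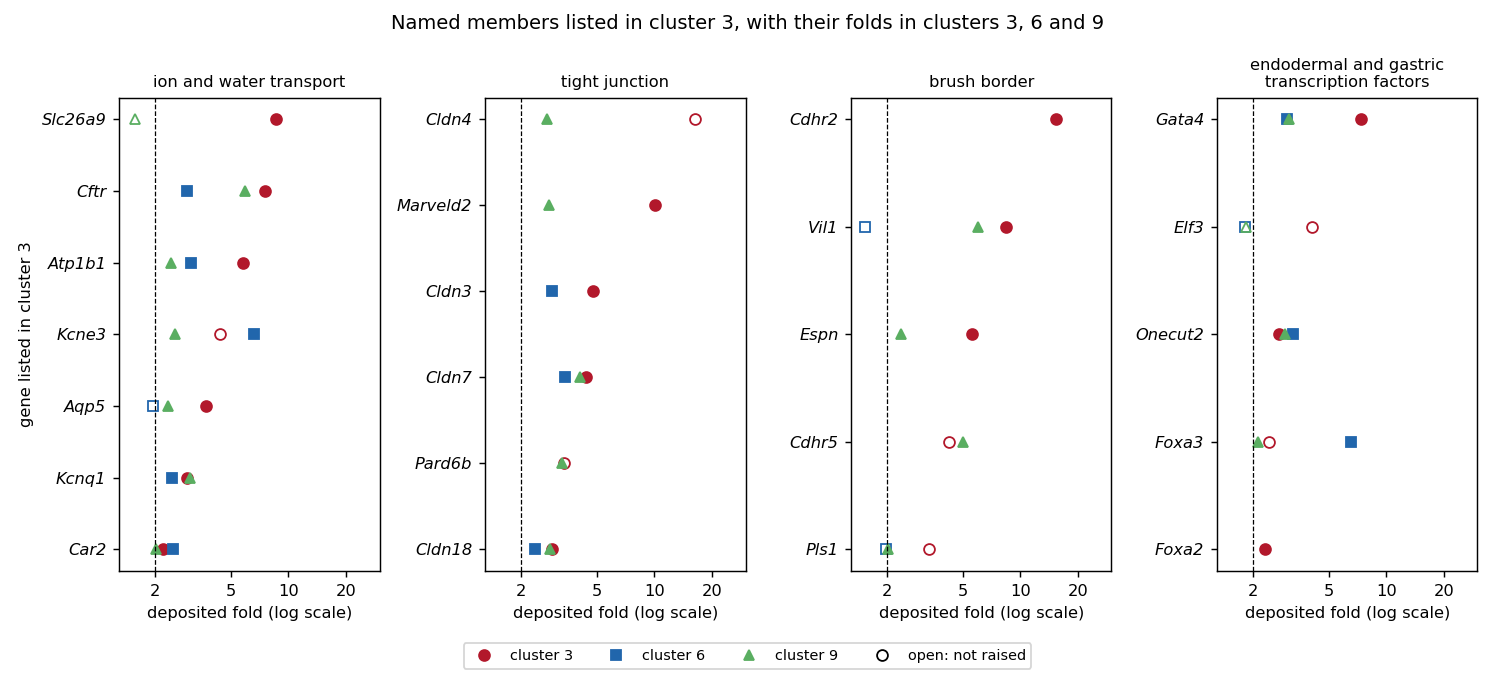
Deposited fold (log scale) of members of 4 gene lists that the text names and cluster 3 listed, with red circles for cluster 3, blue squares for cluster 6 and green triangles for cluster 9. Filled symbols are raised, open symbols are listed and not raised, a missing symbol is not listed, and the dashed line is a fold of 2. Slc26a9 at 8.66, Marveld2 at 10.1, Cdhr2 at 15.5 and Gata4 at 7.41 are filled circles that stand to the right in their panels.

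Of the 9 genes of the surface mucous list, 6 were named in any cluster, and Muc5ac, Capn8 and Capn9 were not. The surface mucous list had 6 of 6 named members listed in each of clusters 3, 6 and 9, of which 3 were raised in cluster 3 and all 6 in clusters 6 and 9. Over the first 733 genes by p the counts were 2, 2 and 1 in clusters 3, 6 and 9. The raised members were Ctse, the trefoil peptide Tff1 at 2.16 in cluster 3, 3.85 in cluster 6 and 2.87 in cluster 9, and the mucin-like Mucl3 at 2.15, 5.46 and 7.34 in the same clusters of the authors' deposited table. The gastrokine Gkn1 and the surface protein Vsig1 were listed in cluster 3 at 4.01 and 3.66 without being raised, against 4.82 and 2.20 in cluster 6 and 5.94 and 3.90 in cluster 9 of the authors' deposited table. Gkn2 had a fold of 1.62 in cluster 3, 10.8 in cluster 6 and 5.60 in cluster 9 of the authors' deposited table.

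Among genes of mucous neck cells and metaplastic glands, 7 of 11 were listed and 5 raised in cluster 3, against 8 listed and 5 raised in cluster 6, and 8 listed and 6 raised in cluster 9. The 5 were Cftr, Aqp5, Dmbt1, Clu and Tff2, with the values above. The gastrokine Gkn3 was listed at 3.22 and the secreted protease inhibitor-like Wfdc2 at 1.69 in cluster 3 of the authors' deposited table. Polymeric immunoglobulin receptor (Pigr), of the same list, was not listed in cluster 3, against 9.29 in cluster 6 and 4.74 in cluster 9 of the authors' deposited table. Its members Muc6, Cd44 and Sox9 were listed in neither cluster 3 nor cluster 6, and cluster 9 listed Muc6 alone of them. Of the 7 chief cell genes 2 were named in any cluster, and 0 of these were listed in cluster 3. Of the 6 parietal genes 1 was named, Vegfb, listed at 3.89 in cluster 3 of the authors' deposited table and not raised. Of the 8 goblet genes 4 were named, and 2 of these were listed in cluster 3. The secreted protein Clca1 was raised there at 4.24, against 6.14 in cluster 6 and 2.7 in cluster 9, and Spdef was not raised at 3.97 in the authors' deposited table. Of the 10 enteroendocrine genes 2 were named, of which 1 was listed, Tph1 at 1.51 in cluster 3 of the authors' deposited table.

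Tuft cells are chemosensory cells of the gut lining, and 5 of 7 named tuft genes were listed in cluster 3, with 1 raised. In cluster 6 the same numbers listed and raised were 5 and 5, and in cluster 9 they were 1 and 0. This order turned over the first 733 genes by p, which held 2 tuft genes in cluster 3 and 0 in clusters 6 and 9. With a p limit of 0.01 the raised tuft genes numbered 0 in cluster 3, against 4 and 0 in clusters 6 and 9. The kinase gene Dclk1 was raised in cluster 3 at 3.13 and was listed in neither cluster 6 nor cluster 9 of the authors' deposited table. Sh2d6 and the taste G protein Gnat3 were listed at 5.69 and 2.64 in cluster 3, not raised, and at 5.19 and 9.58 in cluster 6 of the authors' deposited table. Outside the list, the acetylcholine-forming enzyme Chat, which tuft cells express, was raised at 13.7 in cluster 3 alone, and Rgs13 was raised at 4.54 in cluster 3 and 8.05 in cluster 6 of the authors' deposited table.

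Genes of stratified epithelium were also among the members. Of the 9 genes of the squamous list, 5 were named in any cluster, and Krt5, Krt15, Krtdap and Sprr1b were not. The list had 4 of 5 named members listed and 2 raised in cluster 3, against 2 listed and 1 raised in cluster 6 and the same counts in cluster 9. Trp63, the master regulator of basal cells in stratified epithelium, was at 26.5 and listed in no other cluster, and involucrin (Ivl), a protein of the cornified envelope, was at 12.4 in cluster 3 and 1.5 in cluster 9 of the authors' deposited table. With p at most 0.01 Ivl was still raised in cluster 3 and Trp63 was not, and at 0.001 neither was. Krt13 and Krt14 were listed but not raised in cluster 3, with folds of 5.49 and 4.77 by the authors' deposited table.

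Chosen after their values were seen, the cornified envelope genes Sprr2a1, Sprr2a2 and Sprr2a3 were raised in cluster 3, with folds of 3.72, 4.17 and 7.47 by the authors' deposited table. The first 2 were also listed in cluster 7, at 5.64 and 5.31, and the third in cluster 9 at 1.64 and in cluster 5 at 4.68 in the authors' deposited table. These 3 genes are near-identical copies, so that reads may be split among them. Ly6d was at 2.71, Slurp1 at 9.96, Krt79 at 9.80, Grhl1 at 7.50 and the uroplakin Upk1a at 33.1 in cluster 3 of the authors' deposited table, and each of these but Ly6d was listed in cluster 3 alone.

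**Figure D4:**
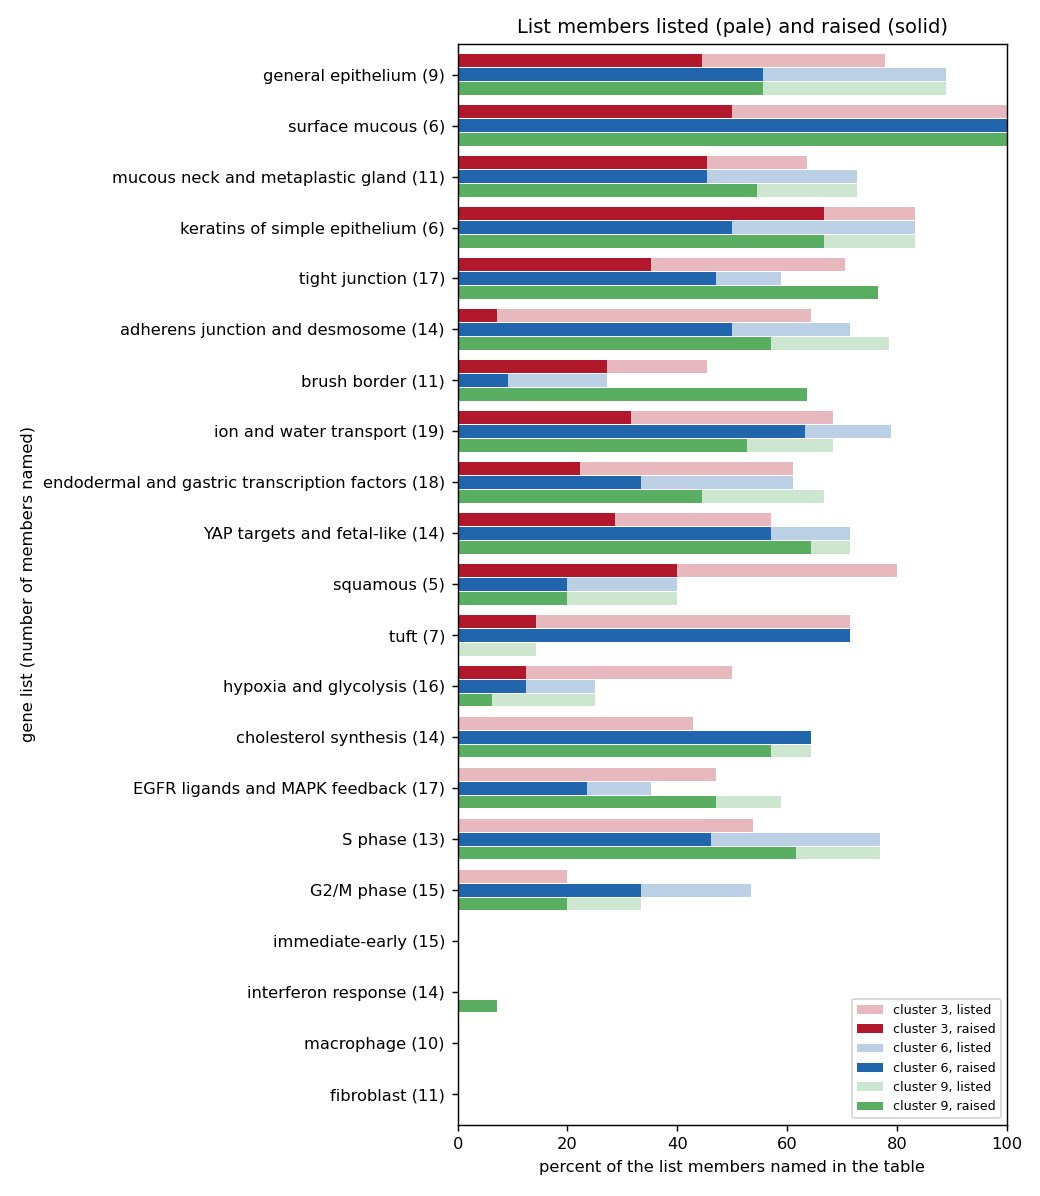
Percent of the named members of 21 gene lists that were listed (pale) and raised (solid) in clusters 3 (red), 6 (blue) and 9 (green), with the number of named members in brackets. In cluster 3 the solid bars are shorter than the pale ones for every list with a listed member that is shown, and the immediate-early, interferon, macrophage and fibroblast lists have 0 members listed there.

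Ribosomal protein genes filled the front of the order of p. Of 88 cytoplasmic ribosomal protein genes named, 46 were listed and 18 raised in cluster 3, against 19 and 7 in cluster 6, and 32 and 9 in cluster 9. Among the first 100 genes by p they numbered 25 in cluster 3, against 15 and 6 in clusters 6 and 9. The listed ones had a median fold of 1.95 in cluster 3, against 1.90 and 1.75 in clusters 6 and 9. The subunit genes Rps2, Rps18 and Rpl26 were at 2.39, 2.75 and 3.68 in cluster 3, 2.35, 2.05 and 2.22 in cluster 6, and 2.13, 1.97 and 2.25 in cluster 9 of the authors' deposited table. Rps13 had the largest fold of this group, 13.1 in cluster 3 of the authors' deposited table.

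Pseudogenes of ribosomal proteins, which can share reads with the genes they copy, had 58 of 137 named members listed and 15 raised in cluster 3. In cluster 6 these counts were 22 and 2, and in cluster 9 they were 21 and 0. Their values are therefore uncertain. Pseudogenes of all kinds were 5.54% of the genes listed in cluster 3, against 3.65% in cluster 6 and 3.56% in cluster 9, and 5.79% of all genes named. Among raised genes they were 8.32% in cluster 3, 2.67% in cluster 6 and 2.61% in cluster 9, and long non-coding genes or genes to be tested were 18.7%, 13.2% and 15.3%. The table named 0 mitochondrially encoded genes in any cluster, so the mitochondrial share of RNA, a usual sign of cell quality, could not be read. Of 7 named nuclear-retained RNAs, 3 were listed in cluster 3 and Malat1 alone was raised, and Neat1 was listed at 2.47, against 1.59 in cluster 6 and 1.73 in cluster 9 of the authors' deposited table.

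Genes of the EGFR, Wnt and Notch pathways, which govern growth and renewal of the epithelium, were present among the members. Ligands, receptors and feedback genes of the EGFR and MAPK pathway had 8 of 17 named members listed in cluster 3, all 8 at a fold of at least 2 and 0 raised, against 6 listed and 4 raised in cluster 6, and 10 listed and 8 raised in cluster 9. The feedback inhibitor Spry2 and the ligand Btc were at 6.07 and 3.79 in cluster 3, and 4.42 and 2.57 in cluster 9, and were not listed in cluster 6 of the authors' deposited table. Wnt and stem cell signalling genes had 7 of 15 named members listed and 2 raised in cluster 3. Cluster 6 had 14 listed and 8 raised, and cluster 9 had 10 listed and raised. With the same number of first genes by p in every cluster, the Wnt counts were 2, 1 and 3 in clusters 3, 6 and 9. Those of the EGFR and MAPK list were 0, 4 and 0.

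The ubiquitin ligase Rnf43, which removes Wnt receptors from the cell surface, was at 9.30 in cluster 3, 1.5 in cluster 6 and 4.37 in cluster 9 of the authors' deposited table. The Wnt effector Tcf7l2 was at 3.11 in cluster 3, 3.12 in cluster 6 and 2.44 in cluster 9 of the authors' deposited table. The receptors Fzd5 and Lgr4 were listed at 7.46 and 5.52 in cluster 3 of the authors' deposited table and were not raised. Of the Notch list, 5 of 11 named members were listed and 1 raised in cluster 3, namely the target Hes1, at 2.08, 2.22 and 2.19 in clusters 3, 6 and 9 of the authors' deposited table. The Notch ligand Jag2 and the feedback inhibitor Nrarp were at 7.54 and 4.38 in cluster 3 of the authors' deposited table without being raised.

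Targets of YAP and genes of fetal-like epithelium had 8 of 14 named members listed and 4 raised in cluster 3, against 10 listed and 8 raised in cluster 6, and 10 listed and 9 raised in cluster 9. Besides Clu these were annexin A1 (Anxa1) at 3.34, 2.08 and 2.44, mesothelin (Msln) at 3.26, 2.57 and 2.7, and the matricellular protein Ccn2 at 2.87, 3.58 and 2.58 in clusters 3, 6 and 9 of the authors' deposited table. Stem and dysplastic stem cell genes had 5 of 11 named members listed and 2 raised in cluster 3, Aqp5 and Prom1, which encodes CD133. Cluster 6 had 5 listed and 3 raised, and cluster 9 had 6 listed and 5 raised. Lgr5, Olfm4, Axin2, Cd44, Sox9 and Bmi1 of this list were not listed in cluster 3. Prom1 was at 2.15 in cluster 3, 2.97 in cluster 6 and 2.09 in cluster 9 of the authors' deposited table. Laminins and integrins had 7 of 13 named members listed and 2 raised in cluster 3, the laminin chain Lama5 at 3.47 and the integrin Itga3 at 2.22, against 2.33 and 3.54 in cluster 6 and 2.89 and 3.15 in cluster 9 of the authors' deposited table. Cluster 6 had 12 of this list listed and 8 raised, and cluster 9 had 10 listed and 8 raised. For mucin-type glycosylation 6 of 16 named members were listed in cluster 3, and Gcnt3, which branches mucin sugars, was raised at 3.47, against 3.14 in cluster 6 and 1.61 in cluster 9 of the authors' deposited table. Gcnt3 was the 1 raised member in cluster 3. Cluster 6 had 9 listed and 8 raised, and cluster 9 had 10 listed and 6 raised.

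Of the cell-cycle lists, 0 genes were raised in cluster 3. For S phase, 7 of 13 genes were listed and 0 raised in cluster 3, against 10 listed and 6 raised in cluster 6, and 10 listed and 8 raised in cluster 9. For G2 and M phase, 3 of 15 genes were listed and 0 raised in cluster 3, against 8 listed and 5 raised in cluster 6, and 5 listed and 3 raised in cluster 9. Over the first 733 genes by p the S phase counts were 0, 0 and 1 in clusters 3, 6 and 9, and those of G2 and M phase were 0 in all 3. Mcm3 of the replicative helicase was listed at 3.19 and the ubiquitin-conjugating enzyme Ube2c at 5.80 in cluster 3 of the authors' deposited table. Without a limit on p, 3 S phase and 3 G2/M genes had a fold of at least 2.

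Metabolic and stress genes were counted in the same way. Cholesterol synthesis enzymes had 6 of 14 named members listed and 0 raised in cluster 3, against 9 listed and raised in cluster 6, and 9 listed and 8 raised in cluster 9. Fdps of that pathway was listed at 5.55 in cluster 3 of the authors' deposited table. Hypoxia and glycolysis genes had 8 of 16 named members listed and 2 raised in cluster 3, against 4 listed and 2 raised in cluster 6, and 4 listed and 1 raised in cluster 9. The angiogenic factor Vegfa was at 3.89 in cluster 3, 2.36 in cluster 6 and 1.77 in cluster 9, and the glycolytic enzyme Pgk1 was at 2.32 in cluster 3 and listed in no other cluster, in the authors' deposited table. Of 19 glutathione and antioxidant genes, 9 were listed in cluster 3 and 2 raised, Gsto1 and Gsta4. Cluster 6 had 9 listed and 5 raised, and cluster 9 had 6 listed and 4 raised. Heat shock genes had 6 of 12 listed and 0 raised, oxidative phosphorylation genes 4 of 18 listed and 0 raised, and the unfolded protein response 3 of 12 listed with the chaperone Calr raised at 2.28 in cluster 3 of the authors' deposited table. Raised genes of these lists numbered, in the same order, 4, 2 and 1 in cluster 6 and 6, 1 and 1 in cluster 9. The lysosome list had 2 of 15 members listed and Ctse raised.

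Clusters 3, 6 and 9 each listed few markers of immune and stromal cells. Cluster 3 listed 0 of 10 macrophage, 0 of 9 dendritic, 0 of 7 neutrophil, 0 of 6 T and NK, 0 of 6 erythroid, 0 of 11 fibroblast and 0 of 7 endothelial genes named in the table. It also listed 0 of 15 immediate-early, 0 of 14 interferon response and 0 of 7 MHC class II genes. Clusters 6 and 9 likewise listed 0 genes of these lists, except for the endothelial list, with 1 and 2, and the interferon list, with 0 and 1. The exceptions in cluster 3 were the mast cell protease Mcpt4, listed at 1.68, and the pericyte proteoglycan Cspg4, raised at 4.0, by the authors' deposited table. The immunoglobulin A heavy chain gene Igha, outside the lists, was raised at 15.4 in cluster 3 alone in the authors' deposited table. The B and plasma cell list of 7 genes had 0 of 1 named member listed there. For the label of gastric epithelial-like cells, the markers had been chosen with these results known, and Epcam and Cdh1 were not listed. At a p of at most 0.01 several genes named above were no longer raised in cluster 3, among them Psors1c2, Adam33, Olfr330, Zbtb26, Fbp1, Mucl3, Clca1, Dclk1, Cspg4, Espn, Dsg2, Foxa2, Rnf43, Itga3, Calr, Sprr2a3, Krt79, Upk1a, Grhl1, Rgs13 and Igha.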

How the data were processed

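Cells dissociated from a tubular and a cystic adenocarcinoma were encapsulated on the inDrop platform and made into TruDrop libraries, per the labels' protocols, with 1 library per tumor type. The submitters' processing notes name mm10, STAR 2.7.3a, Partek and DESeq2 3.5 without giving their roles. The sources used here do not state how cells were filtered and clustered or how doublets were treated. The authors deposited 1 table with, for each of 11 clusters, a linear fold (a ratio) and a p-value per gene, per the file headers. The test behind the p-value is not stated. Of per-sample values it has 0 columns.

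From it, listed and raised genes, members of 47 gene lists and name-based families were counted (Python 3.11.15, pandas 2.3.3), and no test was run. The counting was tested on simulated data. The members and lists were chosen with earlier results of these data known. Genes were named by rule: the markers, the first 15 by p and the 15 largest folds among raised genes (without ribosomal, mitochondrial and unnamed predicted genes), up to 4 raised and 2 other members per list, the first 10 by p listed in no other cluster and the first 10 raised in clusters 3, 6 and 9, and 3 genes on each side of the fold threshold. Families, and genes said to be outside a list, were chosen after their values were seen. Of the 18319 names, 97.8% matched GENCODE M21 (GRCm38).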

Additional observations from a re-analysis of the deposited data

How the results depend on the processing

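The table gives 733 raised genes in cluster 3 and 52 raised among the 457 named genes of the 47 lists. A fold threshold of 1.5 gave 875 and 64, and one of 3 gave 586 and 27. Without a limit on p these were 4025 and 131, at a p of at most 0.01 they were 362 and 37, and at 0.001 they were 144 and 26. Without ribosomal, mitochondrial and predicted genes, the counts were 485 and 52. Taking the first 733 genes by p in every cluster gave 58 list members in cluster 3, 89 in cluster 6 and 80 in cluster 9. Of the 47 lists, 21 had 0 raised members in cluster 3 and could rise but not fall. Of the other 26, those that moved by more than 1.5 times numbered 2 at a fold of 1.5, 15 at a fold of 3, 19 without a limit on p, 11 at 0.01, 14 at 0.001 and 4 with the first 733 genes. Over all 47 lists, with a rise from 0 counted as moved, the numbers were 4, 15, 26, 11, 14 and 6 in the same order. Without a limit on p, the EGFR and MAPK list rose from 0 to 8 and the cholesterol synthesis list from 0 to 4. The counts of clusters 6 and 9 are not part of this tally, and with the first 733 genes they were 2 and 1 for the surface mucous list, against 6 and 6 as reported. Other lists kept higher counts in clusters 6 and 9 at that setting. Ion and water transport had 6, 12 and 9 in clusters 3, 6 and 9. Adherens junctions and desmosomes had 1, 8 and 6. No paired analysis was possible because the table has no values per library. Depth per cluster is unknown, and whether a gene not listed was detectable cannot be told.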

Other observations

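Ephrins and their receptors, which act at contacts between cells, had 6 of 20 named members listed and 4 raised in cluster 3. Cluster 6 had 11 listed and 8 raised, and cluster 9 had 8 listed and raised. Efna4 was at 11.3 in cluster 3 and 2.23 in cluster 6, Efna5 at 5.38 in cluster 3, 1.74 in cluster 6 and 2.05 in cluster 9, and Ephb2 at 6.77, 2.39 and 2.25 in clusters 3, 6 and 9 of the authors' deposited table. Annexins, which bind membranes in the presence of calcium, had 10 of 12 named members listed and 3 raised in cluster 3. The raised ones were Anxa1, Anxa4 at 2.97 and Anxa8 at 3.10 in cluster 3, against 2.82 and 1.94 in cluster 6 and 3.26 and 1.66 in cluster 9, by the authors' deposited table. Cluster 6 had 7 annexins listed and 4 raised, and cluster 9 had 7 listed and 2 raised. Glutathione transferases had 9 of 18 named members listed and 4 raised in cluster 3, with Gsta3 at 19.1 and listed in no other cluster of the authors' deposited table. Cluster 6 had 8 of these genes listed and 6 raised, and cluster 9 had 7 listed and 5 raised.

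Growth factors and cytokines raised in cluster 3 included Igf2 at 11.9, the stem cell factor Kitl at 6.91, the colony-stimulating factor Csf2 at 5.19, Pdgfb at 4.89 and the chemokine Cx3cl1 at 4.73, by the authors' deposited table. The folds in cluster 6 were, for Kitl, Pdgfb and Cx3cl1, 3.24, 1.95 and 2.80, and in cluster 9 those of all 5 genes were 1.77, 2.69, 1.80, 4.76 and 2.35, by the authors' deposited table. Igf2 and Csf2 were not listed in cluster 6. Secreted Wnt antagonists Dkk4 and Frzb were raised at 18.7 and 15.7 and erythropoietin (Epo) at 19.7 in cluster 3, and these 3 genes were listed in no other cluster of the authors' deposited table. Frzb belonged to the group of 72 genes with equal p. The cell-cycle inhibitor gene Cdkn2a was at 3.71 in cluster 3, against 2.17, 2.04 and 4.84 in clusters 6, 9 and 5, and cyclin D1 (Ccnd1) at 2.44, 1.87, 2.47 and 2.89 in these 4 clusters of the authors' deposited table. At a p of at most 0.01, Efna4, Ephb2, Kitl, Csf2, Pdgfb and Epo were no longer raised in cluster 3. All these genes were chosen after their values were seen.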
